A study of Mus musculus with 30 samples.

Results

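Spleens of 6 HIV-1 transgenic Tg26 mice with lymphoma were compared with spleens of 6 Tg26 mice without tumor, called asymptomatic here. The 12 arrays were taken by their descriptions, which give the disease state and spleen as the tissue, out of 30 arrays of spleen and lymph node in the study. Each mouse gave 1 array of whole-spleen total RNA, an Affymetrix Mouse Gene 1.0 ST array. All Tg26 mice were heterozygous on the FVB/N background and carried a pNL4-3 HIV-1 provirus with part of gag-pol removed, so that no infectious virus is made. The colony with leukemia or lymphoma was bred from heterozygotes with skin lesions. Mice were killed between 5 and 12 months of age, and neither age nor sex is given per mouse. Mice 1 to 3 of each state were in batch A and mice 4 to 6 in batch B. The levels in spleens of 3 FVB/N mice without the provirus, all in batch A, are given beside some genes as background only. The comparison asks which genes and pathways go with B cell lymphoma in these mice, per the study's design text.

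B cell precursors assemble antibody genes with the Rag1/Rag2 recombinase, and before a light chain exists they pair the new heavy chain with a surrogate light chain made of Igll1 and a Vpreb protein. This pre-B cell receptor drives a burst of division, after which the recombinase and the surrogate light chain are shut off and the cell moves on to an immature and then a mature B cell. Mature spleen B cells carry CD20, complement receptors, CD23, class II molecules and the chemokine receptor Cxcr5, and share the white pulp with T cells and dendritic cells. A normal adult mouse spleen holds few B cell precursors.

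Expression is given as the authors' normalized log2 level per probe set, so that a difference of 1 is a 2-fold change, and a level of one gene is never set against that of another. Differences are lymphoma minus asymptomatic with their standard error (SE), from limma with batch as a term, and a call needs a p-value below 0.05 after Benjamini-Hochberg adjustment over all 19938 genes. Spleen array medians ran from 6.68 to 6.82. The 3 asymptomatic spleens of batch A were close to one another: within batch, the SD of pairwise gene differences was 0.165 to 0.182 there, 0.263 to 0.308 among the asymptomatic spleens of batch B, 0.386 to 0.415 and 0.502 to 0.542 among the lymphoma spleens of batches A and B, and 0.151 to 0.273 among FVB/N spleens. Across batches it was 0.397 to 0.490 for asymptomatic and 0.502 to 0.664 for lymphoma spleens. With those 3 arrays averaged into 1, an alternative chosen after seeing the data, 2721 genes were called. The spleen array of lymphoma mouse 4 has the disease status code of the FVB/N arrays while its title and description say lymphoma, and it was kept as lymphoma; its Rag1 level was 11.36, against 6.08 ± 0.15 (SD, n = 3) in FVB/N spleens. Lymphoma mice 3 and 5 had Xist at 11.38 and 11.06 where the other 10 mice had 4.88 to 5.33, and without these 2 mice 4575 genes were called. In bulk tissue, fewer cells of a type and less RNA per cell cannot be told apart.

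B lineage and spleen genes were looked at beside the labels. They do not test the disease state, and no node level is set beside them to test the tissue. The pan-B gene Cd79a, a signalling chain of the B cell receptor, was at 11.14 ± 0.21 (SD, n = 6) in lymphoma and 11.04 ± 0.25 (n = 6) in asymptomatic spleens, and the B cell identity factor Pax5 was at 10.33 ± 0.17 and 10.48 ± 0.18. Neither difference passed the test (adjusted p 0.672 and 0.326). The mean level of 9 genes typical of spleen was 6.14 to 7.29 over the lymphoma spleens and 7.0 to 7.19 over the asymptomatic ones. FVB/N spleens had 6.64 to 6.74, and lymphoma mice 4 and 5, at 6.144 and 6.585, lay below them. Of these genes 2, Cd209b and Spic, were lower in lymphoma (22.2% called, against 22.8% of all genes).

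The test called 4536 of 19938 genes (22.8%), of which 2145 were higher in lymphoma (10.8%) and 2391 lower (12.0%). The difference reached 1 log2 unit for 1034 of the called genes. In 1902 genes (9.54%) the 6 lymphoma spleens did not overlap with the 6 asymptomatic ones, all above them in 915 (4.59%) and all below them in 987 (4.95%). The median difference over all genes was -0.0231. The shares of 22.8% called and 9.54% without overlap are the background for every list count below. With surrogate variables in place of batch, as the study's own design text describes, 3822 genes were called (19.2%), 2025 higher (10.2%) and 1797 lower (9.01%). The change differed between the batches in 81 genes (0.406%). Centring each array on its median moved the share of calls that were higher from 47.3% to 51.8%.

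The largest rises were in the machinery of early B cells. Igll1, the lambda5 chain of the surrogate light chain, lay at 10.16, 11.86 and 12.88 (lowest, median and highest of 6 mice) in lymphoma and at 6.34, 6.55 and 6.71 in asymptomatic spleens. Rag1, a subunit of the recombinase, lay at 9.73, 10.84 and 11.36 against 5.39, 5.66 and 5.79. Every lymphoma spleen was thus above every asymptomatic spleen for both genes, by 5.21 (SE 0.30, adjusted p = 1.36e-07) for Igll1 and 5.01 (SE 0.21, adjusted p = 8.51e-09) for Rag1. FVB/N spleens had 6.60 ± 0.07 and 6.08 ± 0.15 (SD, n = 3). Rag2, the other recombinase subunit, rose from a median of 4.11 to 7.04 without overlap, a difference of 2.80 (SE 0.12, adjusted p = 1.01e-08).

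Among 15 measured genes of V(D)J recombination, 6 rose and 1 fell (46.7% called, against 22.8% of all genes). Their median difference was 0.09. The others that rose were the bending cofactors Hmgb2 (1.44, SE 0.16) and Hmgb1 (0.63, SE 0.14), the end-binding subunit Xrcc6 (1.10, SE 0.14) and the ligase Lig4 (0.45, SE 0.13), and the repair factor Paxx fell (-0.40, SE 0.12, adjusted p = 0.0271). The calls of Lig4 and Paxx were lost without any one of 5 and 7 of the 12 mice, with adjusted p up to 0.056 and 0.0637 (Lig4: asymptomatic mice 5 and 6 and lymphoma mice 1, 3 and 6; Paxx: asymptomatic mice 3 to 6 and lymphoma mice 3, 4 and 6). Dntt, the polymerase that adds untemplated bases at the joints, was at 8.30 in lymphoma mouse 3 and 5.06 to 5.88 in the other 5, against 5.36 to 5.84 in asymptomatic spleens, and did not pass the test (0.28, SE 0.43).

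Of 11 measured genes on the list for the surrogate light chain and the pre-B cell receptor, 5 rose and none fell. That is 45.5% called, against 22.8% of all genes, with a median difference of 0.25. Vpreb3, an assembly partner of the receptor chains in B cell precursors, lay at 11.63, 12.00 and 12.19 against 9.09, 9.39 and 9.67. Vpreb1 lay at 8.13, 9.44 and 10.29 against 6.46, 6.66 and 6.82. For both genes the groups were apart, with differences of 2.54 (SE 0.12) and 2.77 (SE 0.29). Vpreb2 also rose, by 1.48 (SE 0.22). Vpreb1 and Vpreb2 are near-identical copies, so the share of signal between their probe sets is uncertain. The fifth gene was the replicative ligase Lig1 (1.39, SE 0.15), which is no part of the receptor and is also counted with the DNA replication genes. The shared receptor chains Cd79a and Cd79b, the adaptor Blnk and the kinases Btk, Syk and Bmx did not pass the test. Their differences ran from -0.23 to 0.25.

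The promoter of Igll1 is shown because this gene had the largest rise and is a classic target of the early B cell factor Ebf1, whose own probe set rose by 0.42. The window holds 250 bases before and 20 after the RefSeq start (GRCm38.p6, chr16:16863966-16864235, minus strand), and capitals mark CCCNNGGG, the core letters of the Ebf1 site. The letters were searched on both strands, and the single match starts at -231 from the start site.
Igll1: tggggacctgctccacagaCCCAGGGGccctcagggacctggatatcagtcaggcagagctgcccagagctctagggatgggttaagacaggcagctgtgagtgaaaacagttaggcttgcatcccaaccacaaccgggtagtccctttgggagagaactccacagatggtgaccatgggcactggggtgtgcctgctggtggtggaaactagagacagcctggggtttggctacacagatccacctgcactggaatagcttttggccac
Such a match was present in 12.5% of all 32851 promoter windows of this length, and in 1 of 13 windows of the surrogate light chain list. CANNTG, the E-box letters bound by Tcf3 and its relatives, was present in 68.9% of all windows and in 10 of those 13. The promoters shown here were chosen after their matches had been seen, and a match is a description of letters only.

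**Figure D1:**
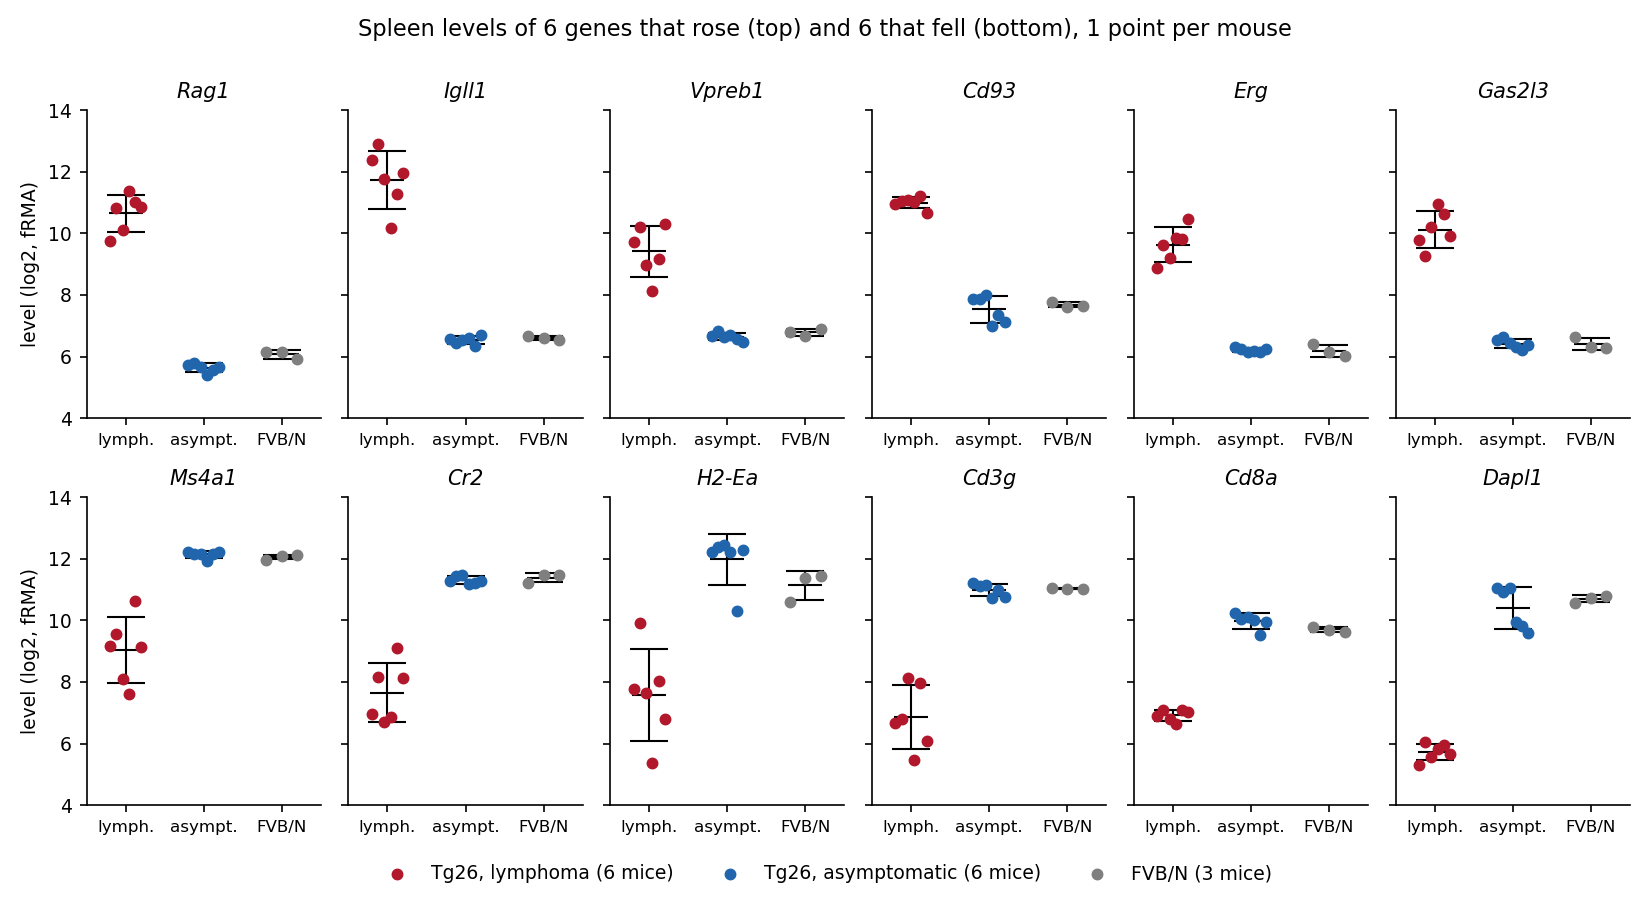
Normalized log2 level (y axis) of 6 genes that rose (Rag1, Igll1, Vpreb1, Cd93, Erg, Gas2l3) and 6 that fell (Ms4a1, Cr2, H2-Ea, Cd3g, Cd8a, Dapl1), with 1 point per mouse for lymphoma, asymptomatic and FVB/N spleens and black bars for the mean ± SD. No lymphoma point overlaps the asymptomatic points in any of the 12 panels; Igll1 runs from 10.16 to 12.88 in lymphoma and from 6.34 to 6.71 in asymptomatic spleens.

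Genes of the precursor surface list, which also holds the transcription factor Erg, were split. Of 18 measured, 7 rose and 5 fell (66.7% called, against 22.8% of all genes). Their median difference was 0.01. Cd93, a lectin-like receptor found on early and transitional B cells, lay at 10.67, 11.03 and 11.20 against 6.98, 7.60 and 8.0, a rise of 3.46 (SE 0.14, adjusted p = 5.28e-09) without overlap and with an SD of only 0.18 among the lymphomas. Erg, an ETS factor of stem and progenitor cells and of endothelium, lay at 8.87, 9.72 and 10.47 against 6.13, 6.21 and 6.31, a rise of 3.42 (SE 0.18). The TGF-beta co-receptor Eng (2.73, SE 0.17), the interleukin 7 receptor Il7r (0.80, SE 0.16) and the heat stable antigen Cd24a (0.49, SE 0.12) also rose.

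Enpep, the BP-1 aminopeptidase that marks large pre-B cells, lay at 6.70, 10.11 and 11.03 against 5.25, 5.31 and 5.48, a rise of 3.92 (SE 0.59) with no overlap. Bst1, the BP-3 surface enzyme of pro-B and pre-B cells, lay at 7.24, 10.27 and 11.41 against 6.66, 7.30 and 7.67, a rise of 2.36 (SE 0.50) in which lymphoma mice 4 and 5 overlapped with the asymptomatic spleens. The Enpep rise was 2.74 in batch B alone (adjusted p 0.106) and 2.47 with surrogate variables. Those that fell were the cytokine receptor Flt3 of multipotent and dendritic precursors (-1.15, SE 0.15), the integrin Itga6 (-1.10, SE 0.09), Ly6d (-2.05, SE 0.32), Cd9 (-1.25, SE 0.36) and Spn (-0.29, SE 0.09). The stem cell factor receptor Kit was 0.61 log2 units lower in the means and did not pass the test (adjusted p 0.0901). The call of Cd9 was lost without any one of asymptomatic mice 4 to 6 or lymphoma mouse 6 (adjusted p up to 0.0571), and that of Spn without any one of asymptomatic mice 1, 2, 3 and 5 or lymphoma mice 1 to 3 (up to 0.0906).

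Among 30 measured transcriptional regulators of the B lineage, 8 rose and 8 fell (53.3% called, against 22.8% of all genes). Their median difference was -0.14. Myb, which B cell progenitors need, lay at 10.62, 10.96 and 11.20 against 7.57, 8.04 and 8.50, a rise of 2.90 (SE 0.10, adjusted p = 3.15e-09). Sox4, a survival factor of pro-B cells, lay at 9.31, 10.06 and 10.43 against 7.09, 7.29 and 7.59, a rise of 2.69 (SE 0.14). Neither gene overlapped between the groups. The E proteins, partners in early B cell transcription, rose: Tcf3 by 0.63 (SE 0.10), Tcf4 by 0.74 (SE 0.12) and Tcf12 by 0.53 (SE 0.11). Ebf1 rose by 0.42 (SE 0.13, adjusted p = 0.0287), a call lost without any one of asymptomatic mice 1, 4, 5 and 6 or lymphoma mouse 2, with adjusted p up to 0.0685.

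On the falling side of the regulators, Bcl6, the germinal center repressor, lay at 7.42, 7.89 and 9.08 against 8.91, 9.35 and 9.53, with lymphoma mouse 5 inside the asymptomatic range. It fell by 1.31 (SE 0.23, adjusted p = 0.00104). Id2, an inhibitor of E proteins, fell by 1.40 (SE 0.35), Ikzf3, a zinc finger factor of later B cells, fell by 0.90 (SE 0.24), and Ikzf1, its relative, fell by 0.33 (SE 0.08). Foxo1, which activates the recombinase genes, was at 10.56 ± 0.25 and 10.68 ± 0.37 and did not pass the test (adjusted p 0.647). With asymptomatic mice 1 to 3 averaged, 3 of the regulators were called lower instead of 8.

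Other large rises were in genes that are not on a B lineage list. Tmem255a, a membrane protein of little known function, lay at 8.96, 9.29 and 9.52 against 5.16, 5.38 and 5.60, a rise of 3.92 (SE 0.11, adjusted p = 2.61e-10), the smallest adjusted p among the 30 named largest changes. Its locus overlaps Zbtb33, whose own probe set differed by 0.25, so the source of the signal is uncertain. Ptgr1, a prostaglandin and leukotriene reductase, lay at 9.91, 10.48 and 11.09 against 6.03, 6.34 and 6.47, a rise of 4.25 (SE 0.18). Drc7, a component of the axoneme of motile cilia, lay at 9.30, 10.24 and 10.79 against 5.52, 5.77 and 6.11, a rise of 4.36 (SE 0.22). In none of these genes did the groups overlap.

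Adhesion G protein-coupled receptors were among them. Adgrg1 lay at 10.36, 10.83 and 11.43 against 6.78, 7.28 and 7.67, a rise of 3.56 (SE 0.15). Adgrl2, a latrophilin, lay at 9.91, 10.64 and 11.45 against 6.64, 6.98 and 7.47, a rise of 3.57 (SE 0.19). Lgr5, the R-spondin receptor of intestinal stem cells, lay at 7.77, 8.99 and 10.28 against 5.5, 5.78 and 5.94, a rise of 3.22 (SE 0.34). The groups were apart for all of these receptors. The mitochondrial lyase relative Hmgcll1 rose by 3.38 (SE 0.15), and the amino acid carrier Slc6a19 of gut and kidney by 3.20 (SE 0.27), also without overlap. Slc6a19 overlaps the antisense gene Slc6a19os, whose own probe set differed by 0.34, which leaves its signal uncertain. Cyyr1 lay at 5.62, 9.08 and 10.24 against 5.24, 5.67 and 5.83, with lymphoma mouse 5 inside the asymptomatic range, and rose by 3.09 (SE 0.52); the difference was 1.5 with surrogate variables and 2.41 within batch B, where the call was lost (adjusted p 0.143).

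Genes of mature B cells fell nearly throughout. Of 27 measured surface genes, 25 fell and none rose, with a median difference of -1.52. The groups were apart in 16 of them, against 9.54% of all genes. Cr2, complement receptor 2, lay at 6.70, 7.54 and 9.09 in lymphoma and at 11.17, 11.26 and 11.47 in asymptomatic spleens, a fall by 3.65 (SE 0.34, adjusted p = 5.3e-06). Ms4a1, which encodes CD20, lay at 7.61, 9.14 and 10.61 against 11.93, 12.16 and 12.23, a fall by 3.11 (SE 0.39). Lymphoma mouse 5 was the highest of the lymphoma group for both genes and was still below the whole asymptomatic group. Fcer2a, encoding CD23, fell by 3.03 (SE 0.41), the follicle homing receptor Cxcr5 by 2.84 (SE 0.42), the activation marker Cd83 by 2.38 (SE 0.23), the costimulatory receptor Cd40 by 1.79 (SE 0.23) and the complement regulator Cd55 by 1.49 (SE 0.12). The tetraspanin Cd37 (-0.05, SE 0.15) and the lipid-presenting Cd1d1 (-0.28, SE 0.27) did not pass the test.

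B cell receptor signalling genes were lower in 17 and higher in 1 of 22 measured, with a median difference of -0.74. Rasgrp3, which couples the receptor to Ras, lay at 5.83, 7.45 and 8.54 against 10.33, 10.60 and 10.81, a fall by 3.29 (SE 0.33) without overlap. The phosphatase Ptprc, or CD45, fell by 1.49 (SE 0.18), the phosphatase Ptpn6 by 0.96 (SE 0.14), the NF-kB adaptor protease Malt1 by 1.38 (SE 0.20) and the inhibitory receptor Cd22 by 1.16 (SE 0.19). The lipid phosphatase Inpp5d, or SHIP1, was the gene that rose, by 0.60 (SE 0.14, adjusted p = 0.00813), with no overlap. With surrogate variables, and also with asymptomatic mice 1 to 3 averaged, 9 of these genes were called lower instead of 17.

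Class II antigen presentation genes fell in 12 of 15 measured. B cells, dendritic cells and macrophages use them to show peptides to CD4 T cells. The median difference of the list was -1.52, and 10 genes had no overlap, against 9.54% of all genes. The master activator Ciita lay at 6.93, 7.29 and 9.09 against 9.99, 10.15 and 10.28, a fall by 2.57 (SE 0.26). H2-Ea lay at 5.38, 7.71 and 9.90 against 10.30, 12.26 and 12.43, a fall by 4.39 (SE 0.51). Asymptomatic mouse 5, at 10.30, lay well below the other 5 asymptomatic spleens for H2-Ea and yet above every lymphoma spleen. H2-Eb1 fell by 3.23 (SE 0.37), H2-Aa by 2.14 (SE 0.26), H2-Ab1 by 2.04 (SE 0.27) and the invariant chain Cd74 by 1.52 (SE 0.23). The 3 that did not pass were the activator subunit Rfxap (0.15, SE 0.11), the lysosomal reductase Ifi30 (-0.18, SE 0.16) and H2-Eb2 (-0.32, SE 0.32).

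Promoters of H2-Eb1 (chr17:34305617-34305886, plus strand) and H2-Aa (chr17:34287804-34288073, minus strand) are shown for this group, since class II promoters are known for a compact module that ends in a CCAAT box, also called the Y box. Capitals mark CCAAT or its reverse complement, at -59 and -35 in H2-Eb1 and at -48 in H2-Aa.
H2-Eb1: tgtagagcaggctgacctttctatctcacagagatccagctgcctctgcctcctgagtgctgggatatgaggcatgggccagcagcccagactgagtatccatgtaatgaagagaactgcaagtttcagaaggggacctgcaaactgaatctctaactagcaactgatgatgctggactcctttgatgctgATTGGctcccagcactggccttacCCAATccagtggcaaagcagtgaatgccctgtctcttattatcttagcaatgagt
H2-Aa: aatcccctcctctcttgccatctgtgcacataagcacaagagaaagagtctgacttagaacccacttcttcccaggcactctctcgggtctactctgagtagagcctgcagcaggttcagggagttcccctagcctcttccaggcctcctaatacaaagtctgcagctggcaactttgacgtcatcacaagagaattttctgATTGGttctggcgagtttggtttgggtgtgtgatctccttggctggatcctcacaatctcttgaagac
CCAAT on either strand was present in 8 of 11 windows (72.7%) that matched 10 of the 15 class II genes, against 35.4% of all windows.

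Of 16 measured plasma cell genes, 2 rose and 2 fell, with a median difference of -0.07; the share called, 25%, was near that over all genes (22.8%). Mzb1, a chaperone of immunoglobulin assembly that marginal zone B cells also express, lay at 10.56, 10.75 and 11.20 against 9.47, 9.70 and 9.84, a rise of 1.10 (SE 0.11) without overlap, and the chaperone Creld2 rose by 0.47 (SE 0.11). The joining chain Jchain lay at 5.67, 9.51 and 10.48 against 10.18, 10.64 and 10.83, with lymphoma mouse 4 lowest and lymphoma mouse 3 inside the asymptomatic range. It fell by 1.70 (SE 0.55, adjusted p = 0.04), a call lost without any one of the 6 asymptomatic mice or lymphoma mice 1 and 6 (adjusted p up to 0.0916), and with surrogate variables (-0.70, adjusted p 0.502).

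T cell genes fell by the widest margins of any list. All 15 measured members of the T cell receptor complex and its coreceptors fell, with a median difference of -3.06. No overlap was present in 13 of them, against 9.54% of all genes. Cd3g, a signalling chain of the receptor, lay at 5.47, 6.74 and 8.12 against 10.71, 11.04 and 11.22, a fall by 4.13 (SE 0.35, adjusted p = 2.58e-06). The companion chain Cd3d fell by 3.18 (SE 0.22), and Cd3e fell by 3.14 (SE 0.27). The CD8 chains Cd8a and Cd8b1 fell by 3.06 (SE 0.12) and 3.40 (SE 0.17), and Cd4 by 3.38 (SE 0.30). The costimulatory receptor Cd27, which memory B cells also carry, fell by 3.39 (SE 0.24). Cd2 had the weakest call (-0.64, SE 0.19, adjusted p = 0.0241), which was lost without asymptomatic mouse 1 (adjusted p 0.0505).

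Among 25 measured T cell signalling and regulatory genes, 24 fell, with a median difference of -2.10. No overlap was present in 20 of them, against 9.54% of all genes. Dapl1, a gene of naive T cells, lay at 5.32, 5.74 and 6.04 against 9.59, 10.44 and 11.06, a fall by 4.67 (SE 0.22, adjusted p = 2.09e-08), the largest fall named. The fall was larger in batch A (-5.36) than in batch B (-3.98; adjusted p = 0.0424 for the difference between batches). Ms4a4b, a tetraspan modulator of T cells, fell by 4.22 (SE 0.21); its level in FVB/N spleens was 8.61 ± 0.20 (SD, n = 3) and the asymptomatic spleens lay at 9.76, 10.01 and 10.24, all of them above every lymphoma spleen. The RNA transporter Sidt1 fell by 3.45 (SE 0.17), Themis, which sets selection thresholds in thymocytes, by 3.10 (SE 0.15), the TEC kinase Txk by 2.71 (SE 0.12) and the protein kinase Prkcq by 3.12 (SE 0.32). Gimap4 did not pass the test (-0.16, SE 0.18). The adhesion receptor Cd96 of T and NK cells fell by 3.43 (SE 0.24).

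Genes of regulatory or chronically stimulated T cells were lower in 10 and higher in 2 of 16 measured, with a median difference of -0.69. The regulatory T cell factor Foxp3 lay at 5.93, 6.76 and 7.64 against 7.48, 8.04 and 8.17, a fall by 1.19 (SE 0.24), with overlap at lymphoma mouse 3. The receptor Tnfrsf18, or GITR, fell by 1.62 (SE 0.24). Those that rose were Cd244a, a receptor of the SLAM family (1.41, SE 0.14), and the ectonucleotidase Entpd1 (0.72, SE 0.14), both without overlap.

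NK and cytotoxic genes fell in 18 of 22 measured, with a median difference of -1.58. The NK receptor Ncr1 lay at 4.59, 5.92 and 6.86 against 8.28, 8.43 and 8.52, a fall by 2.57 (SE 0.28). The protease Ctsw of cytotoxic cells fell by 2.67 (SE 0.18), the activating receptor Klrk1 by 1.81 (SE 0.15) and perforin, Prf1, by 1.62 (SE 0.15). Granzyme B, Gzmb, was at 6.54 ± 0.94 and 7.19 ± 0.58 and did not pass the test (adjusted p 0.0858).

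Dendritic cell genes fell in 18 of 20 measured, with a median difference of -1.27. Clec9a, the dead-cell receptor of cross-presenting dendritic cells, lay at 5.17, 5.29 and 5.69 against 6.64, 7.01 and 7.65, a fall by 1.76 (SE 0.14) without overlap. Siglech of plasmacytoid dendritic cells lay at 6.03, 6.45 and 8.57 against 8.59, 8.69 and 9.09, a fall by 2.02 (SE 0.29), with lymphoma mouse 5 only just below the asymptomatic group. The actin bundler Fscn1 of mature dendritic cells fell by 1.70 (SE 0.18).

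**Figure D2:**
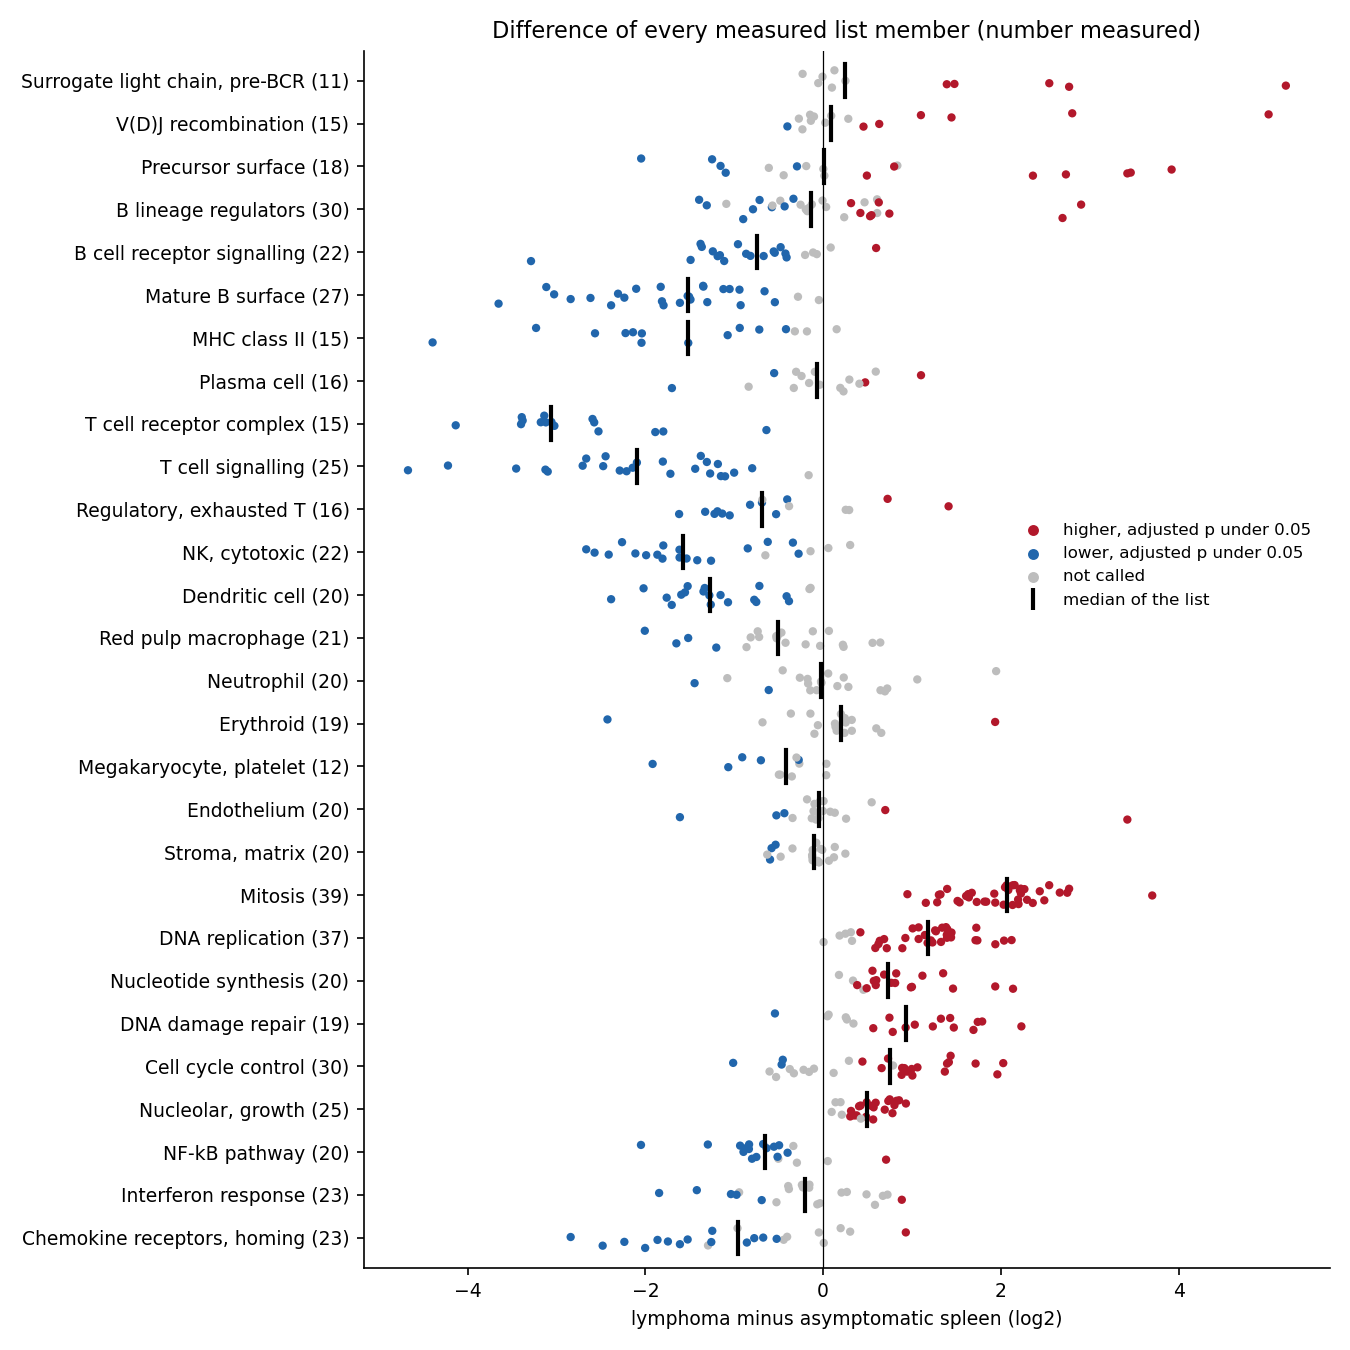
Difference in log2 level, lymphoma minus asymptomatic spleen (x axis), for every measured member of 28 gene lists (rows), with called members in red (higher) or blue (lower), others in grey, and a black bar at each list's median. All 39 mitosis genes lie to the right with a median of 2.06 and all 15 T cell receptor complex genes to the left with a median of -3.06, while lists such as the neutrophil genes (median -0.02) straddle 0.

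For red pulp macrophage, neutrophil and erythroid genes, as for some other lists, the median difference changed sign between the batches. This was not tested for the lists as wholes. Of 21 red pulp macrophage genes, 4 fell and none rose (19% called, against 22.8% of all genes). Their median difference was -0.51 in both batches together, 0.26 in batch A and -1.23 in batch B. Heme oxygenase, Hmox1, lay at 7.17, 8.48 and 8.94 against 10.09, 10.38 and 10.54, a fall by 2.01 (SE 0.21) without overlap; FVB/N spleens had 8.33 ± 0.29 (SD, n = 3). The iron exporter Slc40a1 (-1.65, SE 0.43), the red pulp factor Spic (-1.52, SE 0.40) and the F4/80 gene Adgre1 (-1.20, SE 0.34) overlapped between the groups, and their calls were lost when asymptomatic mice 4 and 5 were left out (adjusted p 0.118, 0.12 and 0.137). The call of Adgre1 was lost without asymptomatic mouse 5 alone (adjusted p 0.0504). Of 10 marginal zone and sinus macrophage genes, 3 fell (30% called), among them the SIGN-R1 lectin Cd209b (-0.56, SE 0.10).

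Of 20 neutrophil genes 2 fell (10% called, against 22.8% of all genes), and the median difference was 0.68 in batch A and -0.68 in batch B. In batch B the mean of these genes was 6.92, 8.47 and 7.51 in lymphoma mice 4 to 6, against 7.88 to 8.48 in asymptomatic mice 4 to 6. The granulocyte growth factor receptor Csf3r fell by 1.45 (SE 0.22) without overlap. Ly6g fell by 0.61 (SE 0.19, adjusted p = 0.0357), a call lost without any one of asymptomatic mice 1, 4, 5 and 6 or lymphoma mice 3, 4 and 6 (adjusted p up to 0.0859). The erythroid list of 19 genes had 1 that rose and 1 that fell (10.5% called), with a median difference of 0.44 in batch A and -0.08 in batch B. The transferrin receptor Tfrc, also used by dividing cells, lay at 9.43, 10.18 and 10.39 against 7.80, 8.14 and 8.50, a rise of 1.94 (SE 0.14). The heme synthesis enzyme Alas2 fell by 2.43 (SE 0.53), which was not called with surrogate variables (-1.02, adjusted p 0.121). Of 12 megakaryocyte and platelet genes 5 fell, among them the integrin Itgb3 (-1.07, SE 0.27); none was called without asymptomatic mice 4 and 5. The platelet chemokine Ppbp lost its call without asymptomatic mouse 4 alone (-1.92 with all mice; adjusted p 0.0517 without that mouse).

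Of 20 endothelial genes 2 rose and 3 fell, 25% against 22.8% of all genes; the risers were Erg, described above, and Egfl7 (0.70, SE 0.11), while the defining junction gene Cdh5 was among those that fell. Of 20 stroma and matrix genes 3 fell (15% called), by up to 0.60. Among 14 genes of lymphoid stroma and its chemokines 3 rose and 4 fell (50% called), a count that became 0 and 2 with surrogate variables. Lymphotoxin beta, Ltb, which organizes lymphoid tissue, lay at 8.61, 9.46 and 11.02 against 11.07, 11.49 and 12.04, a fall by 1.84 (SE 0.37). The B cell chemokine Cxcl13 fell by 1.23 (SE 0.35), with differences of -0.13 in batch A and -2.33 in batch B (adjusted p = 0.0392 for the difference between batches), and the call was lost without asymptomatic mouse 4, 5 or 6 (adjusted p up to 0.0558). The alarmin Il33 rose by 1.49 (SE 0.27) and was not called with surrogate variables (0.72, adjusted p 0.113).

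Of 17 exocrine pancreas genes none was called, but their mean level was 7.32 and 8.36 in asymptomatic mice 4 and 5 and 6.78 in lymphoma mouse 1, against 5.90 to 6.36 in the other 9 spleens; without asymptomatic mice 4 and 5, 3535 genes were called. None of 9 liver and none of 12 salivary gland genes was called, and 1 of 19 adipose and muscle genes was, the carbonic anhydrase Car3 (0.64, adjusted p = 0.034), a call lost without any one of 8 of the mice.

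**Figure D3:**
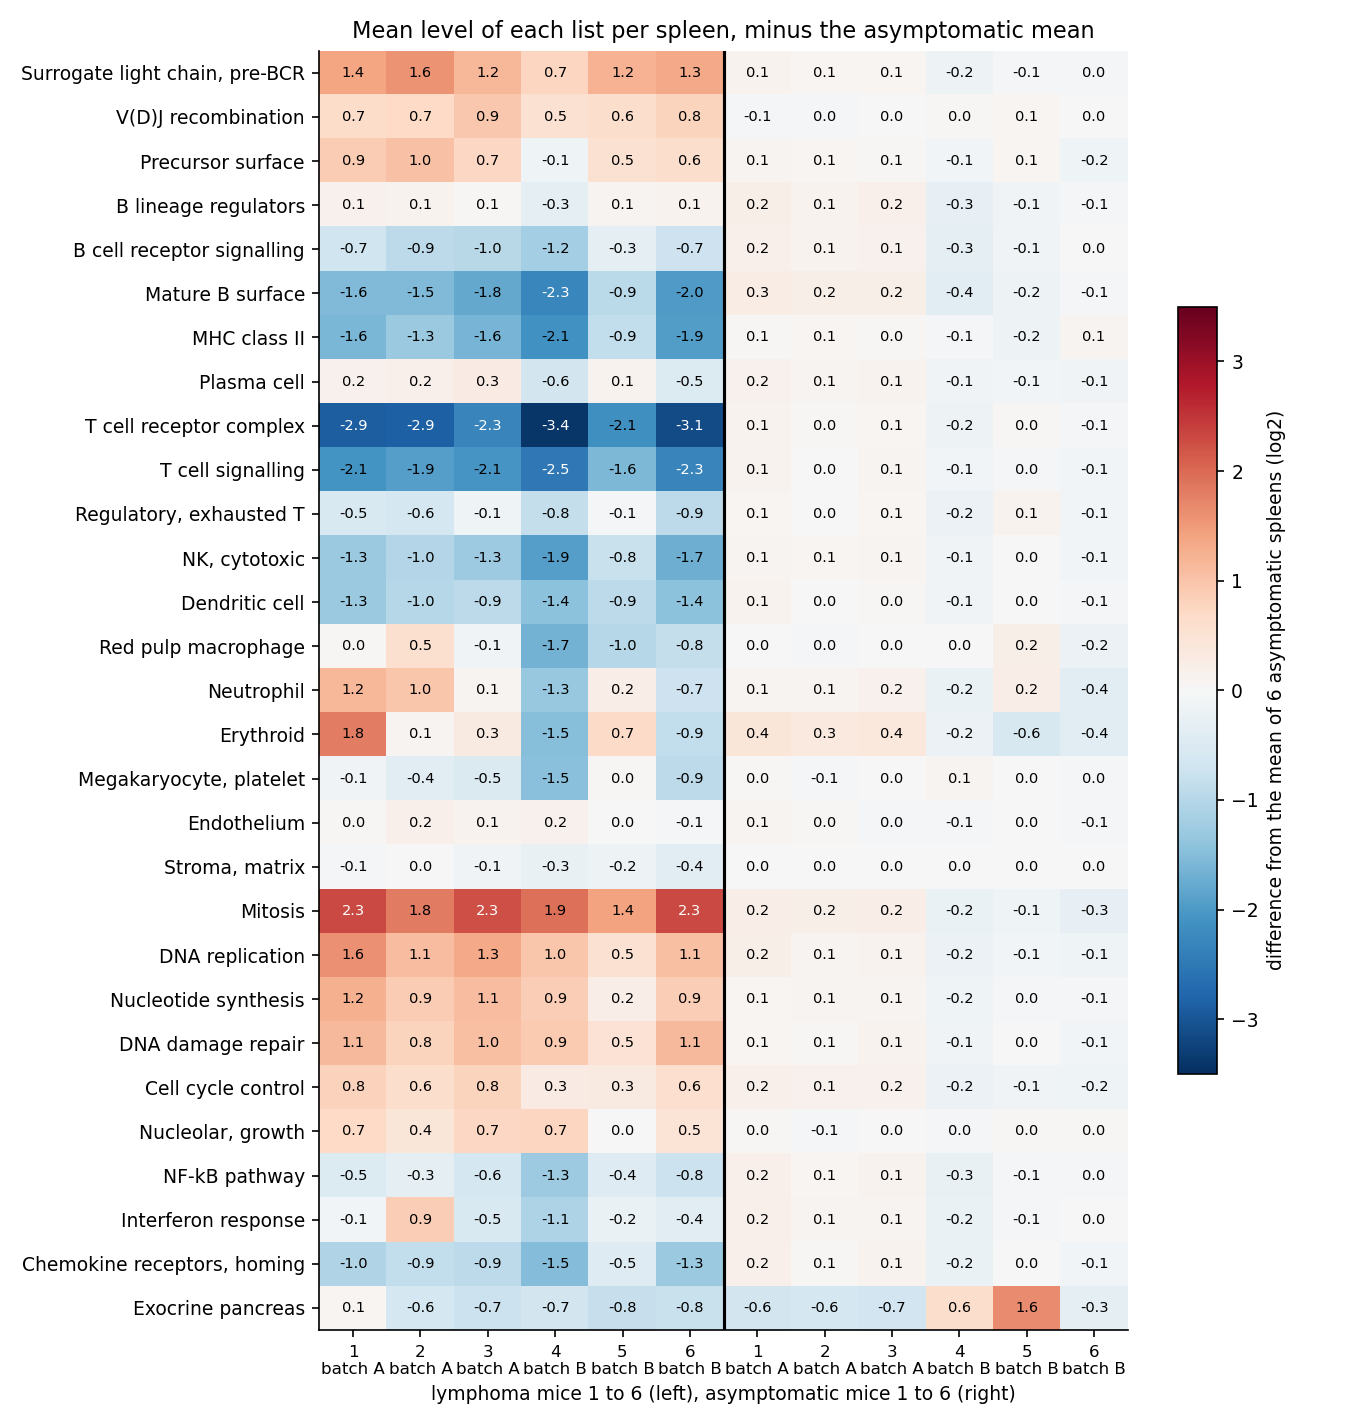
Mean log2 level of each gene list minus its mean over the 6 asymptomatic spleens (colour), for 29 lists (rows) and 12 mice (columns, lymphoma left, asymptomatic right, with their batch). The T cell receptor complex row runs from 6.30 (lymphoma mouse 4) to 7.56 (lymphoma mouse 5) in level against 9.51 to 9.82 in asymptomatic mice, and lymphoma mouse 4 is the lowest of the lymphoma group in most rows of other cell types.

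Genes of cell division rose as a block. All 39 measured mitosis and spindle genes rose, with a median difference of 2.06 and no overlap between the groups in any of the 39; all 39 were also called higher with surrogate variables and without each single mouse. The spindle checkpoint kinase Bub1b lay at 8.88, 9.61 and 9.90 against 6.44, 6.81 and 7.08, a rise of 2.75 (SE 0.15, adjusted p = 5.35e-08). Gas2l3, a cytoskeletal linker at the midbody, lay at 9.27, 10.05 and 10.95 against 6.22, 6.41 and 6.62, a rise of 3.70 (SE 0.22), the largest of the list. Ki-67, Mki67, lay at 10.31, 10.93 and 11.39 against 8.25, 8.85 and 9.26, a rise of 2.06 (SE 0.20). The smallest rises of the list were those of the kinetochore subunit Spc24 (0.95, SE 0.12) and of the centriole kinase Plk4 (1.16, SE 0.16). By the mean of the list, lymphoma mouse 5 was lowest of its group at 8.58 and lymphoma mouse 6 highest at 9.48, against 6.87 to 7.41 in asymptomatic and 7.01 to 7.52 in FVB/N spleens.

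Promoters of 3 of these genes are shown because genes of mitosis share CCAAT boxes, bound by NF-Y, and the cell cycle homology region TTTGAA. They belong to cyclin B2, Ccnb2 (chr9:70421535-70421804, minus strand), to the anaphase activator Cdc20 (chr4:118437324-118437593, minus strand) and to the spindle motor Kif11 (chr19:37376132-37376401, plus strand). Their genes rose by 2.08 (SE 0.15), 1.67 (SE 0.13) and 2.66 (SE 0.18). Capitals mark both motifs on either strand.
Ccnb2: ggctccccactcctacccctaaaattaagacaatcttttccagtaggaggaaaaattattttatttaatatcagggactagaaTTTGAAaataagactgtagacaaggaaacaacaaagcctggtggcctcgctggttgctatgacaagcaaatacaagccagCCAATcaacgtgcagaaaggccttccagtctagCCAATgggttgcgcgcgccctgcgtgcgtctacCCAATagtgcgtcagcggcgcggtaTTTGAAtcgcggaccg
Cdc20: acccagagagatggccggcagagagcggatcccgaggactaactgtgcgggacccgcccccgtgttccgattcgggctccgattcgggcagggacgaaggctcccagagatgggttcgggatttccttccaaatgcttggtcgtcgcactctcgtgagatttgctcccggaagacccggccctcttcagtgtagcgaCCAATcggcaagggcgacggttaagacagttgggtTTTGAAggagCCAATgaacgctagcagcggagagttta
Kif11: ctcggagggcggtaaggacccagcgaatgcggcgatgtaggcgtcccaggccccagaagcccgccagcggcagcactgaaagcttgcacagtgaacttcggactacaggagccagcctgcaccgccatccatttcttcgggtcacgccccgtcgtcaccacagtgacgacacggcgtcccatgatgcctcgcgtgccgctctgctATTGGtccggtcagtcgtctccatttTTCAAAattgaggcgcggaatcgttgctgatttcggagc
CCAAT matched at -87, -54 and -21 in Ccnb2, at -53 and -8 in Cdc20 and, on the reverse strand, at -45 in Kif11. TTTGAA matched at -167 and 5 in Ccnb2, at -18 in Cdc20 and, on the reverse strand, at -19 in Kif11. Over the 34 windows that matched 32 of the 39 genes, CCAAT was present in 76.5% and TTTGAA in 47.1%, against 35.4% and 16.8% of all windows. Over 36 windows of 31 of 37 DNA replication genes the shares were 66.7% and 13.9%.

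DNA replication genes rose in 32 of 37 measured and fell in none, with a median difference of 1.17. The GINS subunit Gins1 lay at 8.02, 8.47 and 8.75 against 6.46, 6.52 and 6.63, a rise of 1.94 (SE 0.11) without overlap. The ubiquitin ligase adaptor Dtl rose by 2.12 (SE 0.13), the helicase subunit Mcm6 by 1.72 (SE 0.16) and the chromatin assembly subunit Chaf1a by 1.44. The sliding clamp Pcna rose by 0.62 (SE 0.10) with overlap, and the polymerase subunit Pold1 (0.01, SE 0.15) and the licensing factor Cdt1 (0.25, SE 0.18) did not pass the test.

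Genes that make nucleotides rose in 17 of 20 measured, with a median difference of 0.73. Ribonucleotide reductase subunit Rrm2 lay at 9.75, 10.54 and 11.17 against 7.93, 8.37 and 8.68, a rise of 2.14 (SE 0.12) without overlap, thymidylate synthase, Tyms, rose by 1.94 (SE 0.19) and deoxycytidine kinase, Dck, by 1.46 (SE 0.13). DNA damage and repair genes rose in 13 and fell in 1 of 19, with a median of 0.93. The checkpoint kinase Chek1 rose by 2.23 (SE 0.14) and the histone H2ax by 1.74 (SE 0.13), and the mediator Mdc1 fell by 0.54 (SE 0.11), each without overlap.

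Cell cycle control genes rose in 17 and fell in 3 of 30 measured (66.7% called, against 22.8% of all genes). The repressor E2f8 lay at 8.79, 9.30 and 9.98 against 7.08, 7.42 and 7.66, a rise of 1.96 (SE 0.17), cyclin E2, Ccne2, rose by 1.72 (SE 0.15), Cdk6, the kinase of the G1 cyclins, by 1.39 (SE 0.18) and the D cyclin Ccnd3, which pre-B cells rely on, by 0.91 (SE 0.12). The brakes Rbl2 (-1.01, SE 0.11) and Cdkn1b (-0.45, SE 0.11) and the antiproliferative Tob1 were the ones that fell. The other D cyclin of B cells, Ccnd2, ran from 6.8 to 11.53 among lymphomas against 10.16 to 10.44 in asymptomatic spleens and did not pass the test (-0.60, SE 0.60). The tumor suppressor Cdkn2a ran from 6.88 to 8.89 against 6.54 to 7.39, highest in lymphoma mice 3 and 4, and did not pass either (adjusted p 0.116).

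Growth and leukemia genes gave smaller or mixed changes. Of 25 nucleolar, ribosome-making and other growth genes 20 rose and none fell, with a median difference of 0.49. The other growth genes that rose include Ldha, Eif4e, Hspd1 and Srm. With surrogate variables 10 genes of this list were called, and 6 with asymptomatic mice 1 to 3 averaged. Myc itself, the driver most known for these genes, lay at 10.36, 11.02 and 11.53 against 10.46, 10.96 and 11.31 and did not pass the test (0.08, SE 0.23). The growth regulator Pa2g4 rose by 0.93 (SE 0.15). Of 30 genes known from leukemia and lymphoma 6 rose and 5 fell (36.7% called, against 22.8% of all genes). Their median difference was -0.04. Socs2, a feedback inhibitor induced by cytokine signalling, lay at 8.61, 10.81 and 11.56 against 7.88, 8.11 and 8.28, a rise of 2.38 (SE 0.40) without overlap, which was 1.22 with surrogate variables and lost its call within batch B (1.88, adjusted p 0.134).

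Of 23 apoptosis and p53 pathway genes 3 rose and 3 fell, a share of 26.1% near that over all genes. The survival gene Bcl2 lay at 7.71, 8.35 and 8.54 against 9.35, 9.65 and 9.93, a fall by 1.37 (SE 0.13) without overlap, and the death receptor Fas fell by 1.35 (SE 0.24). The apoptosome core Apaf1 rose by 0.84 (SE 0.11). NF-kB pathway genes were lower in 15 and higher in 1 of 20 measured, with a median of -0.66. The adaptor Traf1 lay at 6.15, 6.82 and 7.56 against 8.70, 8.95 and 8.97, a fall by 2.05 (SE 0.18), and the subunit Nfkb2 fell by 0.93 (SE 0.17). The gene that rose was the early activation marker Cd69 (0.71, SE 0.20), whose call was lost without asymptomatic mouse 4 or 5 (adjusted p up to 0.0524).

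Among 23 interferon response genes 5 fell and 1 rose (26.1% called, against 22.8% of all genes). Their median difference was -0.20 in both batches together, 0.13 in batch A and -0.43 in batch B. The chemokine Cxcl9 fell by 1.42 (SE 0.19) and the antiviral Rsad2 by 1.84 (SE 0.35), which was not called with surrogate variables (-0.76, adjusted p 0.18). The guanylate-binding protein Gbp3 rose by 0.89 (SE 0.26), a call lost without any one of asymptomatic mice 2, 3 and 5 or lymphoma mice 1 and 2 (adjusted p up to 0.0601). Of 14 class I presentation genes 3 fell, the peptide loading factor Tapbp, the immunoproteasome subunit Psmb10 and H2-M3. This share, 21.4%, was near the 22.8% called over all genes. The calls of Psmb10 and H2-M3 were lost without any one of 7 and 9 of the mice (adjusted p up to 0.0774 and 0.0871).

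Chemokine receptor and homing genes were lower in 14 and higher in 1 of 23 measured, with a median of -0.96. The integrin chain Itgb7 lay at 6.69, 7.52 and 7.96 against 9.85, 9.98 and 10.11, a fall by 2.48 (SE 0.18), and the T and NK cell receptor Cxcr3 fell by 2.00 (SE 0.17). The gene that rose was Cxcr4, which holds B cell precursors in the bone marrow niche: it lay at 11.14, 11.39 and 11.68 against 10.21, 10.47 and 10.74, a rise of 0.93 (SE 0.11) without overlap, while FVB/N spleens were at 11.64 ± 0.17 (SD, n = 3).

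Chromatin regulators rose in 13 and fell in 4 of 26 (65.4% called, against 22.8% of all genes). The remodeler Smarca4 lay at 10.86, 11.23 and 11.44 against 9.46, 9.75 and 9.97, a rise of 1.45 (SE 0.11), and the Polycomb methylase Ezh2 lay at 9.76, 10.89 and 11.14 against 8.43, 8.97 and 9.5, a rise of 1.69 (SE 0.14). The paralog Ezh1 (-0.82, SE 0.11) and the reader Cbx7 (-1.56, SE 0.15) went the other way, all 4 without overlap. Of 16 genes for uptake of amino acids, iron and folate 8 rose and 2 fell (62.5% called). Among the risers were the iron reductase Steap3 (1.19, SE 0.12) and the amino acid exchanger Slc7a5 (0.97, SE 0.17). Of 17 glycolysis and hypoxia genes 8 rose and 3 fell (64.7% called). With surrogate variables 1 was called higher, and the glucose carrier Slc2a1 fell by 0.85 (SE 0.14) in the main fit. Of 22 growth factor and receptor genes 2 rose and 5 fell (31.8% called, against 22.8% of all genes). The cytokine receptor Lifr was up by 1.65 (SE 0.36) and Igf1r down by 0.87 (SE 0.12). Of 15 immediate early genes 3 fell (20% called, against 22.8% of all genes), led by Egr3 (-0.98, SE 0.17).

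The lymphomas differed more from one another than the asymptomatic spleens did. The median SD within batch was 0.207 in lymphoma and 0.132 in asymptomatic spleens, and 14944 genes (75%) had the larger SD in lymphoma. The genes described next were picked after their values were seen, to show this spread, and the order of the mice was not tested.

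Igf2, a fetal growth factor, was at 6.17, 6.38, 10.54, 10.92, 12.78 and 5.55 in lymphoma mice 1 to 6, against 5.74 to 6.55 in asymptomatic spleens. Mice 3, 4 and 5 were thus far above the asymptomatic range and mice 1, 2 and 6 near it. The decoy receptor Il1r2 was at 8.17, 6.97, 8.68, 10.12, 11.04 and 6.12, with mice 4 and 5 highest. The neuroendocrine factor Insm1 was at 6.60, 5.84, 9.61, 9.84, 7.66 and 5.33, and Fstl1, a secreted glycoprotein, at 5.82, 5.48, 9.02, 9.5, 7.65 and 6.03. Both were highest in mice 3 and 4. Enpep showed another order, at 10.53, 11.03, 9.77, 6.70, 7.14 and 10.46, and so did Bst1, at 10.97, 11.41, 10.14, 7.33, 7.24 and 10.40: mice 4 and 5 were low for both. The peroxidase Pxdn was at 8.42, 9.78, 6.35, 5.86, 5.76 and 9.58, above the asymptomatic range of 5.62 to 6.43 in mice 1, 2 and 6. Socs2 was likewise highest in mice 1, 2 and 6, at 11.45, 11.26 and 11.56, and lowest in mouse 5, at 8.61. Ccn3, a matricellular protein, stood out in mouse 6 at 11.64 against 5.79 to 7.88 in the other 5, and Cd160, a receptor of NK and T cells, in mice 4 and 5 at 10.51 and 9.20 against 5.27 to 6.86. Cd93 and Myb, by contrast, ran only from 10.67 to 11.20 and from 10.62 to 11.20 over the 6 lymphomas, and Rag1 ran from 9.73 to 11.36.

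**Figure D4:**
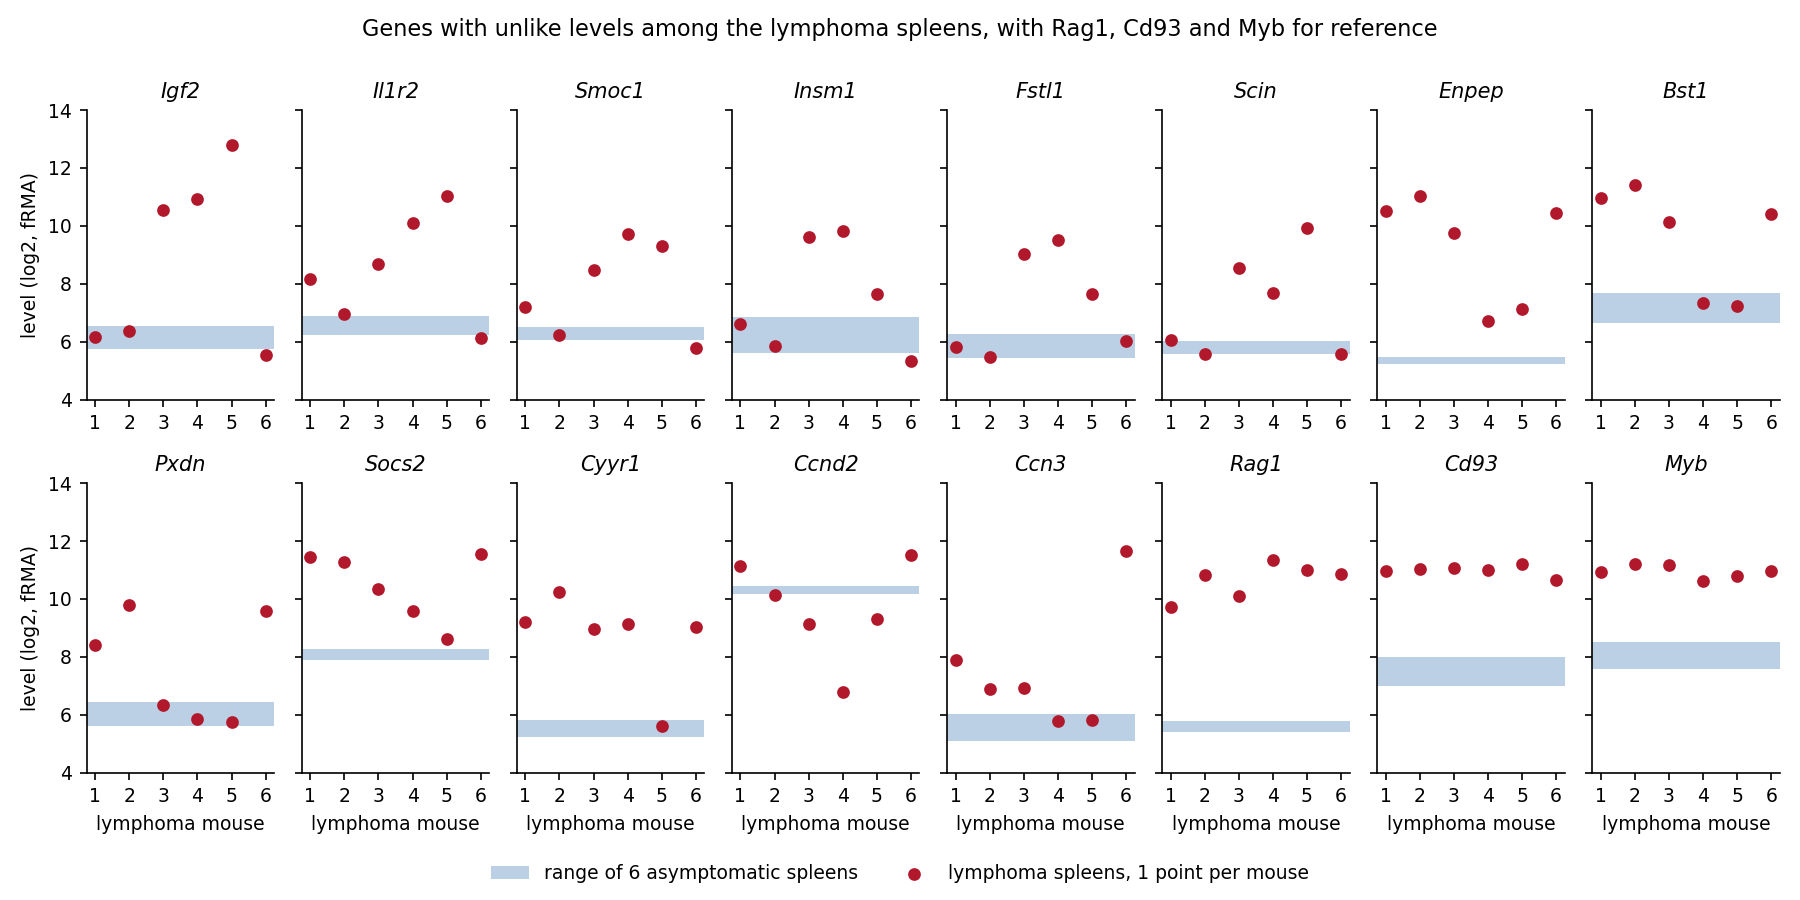
Log2 level (y axis) of 16 genes in each of the 6 lymphoma spleens (1 point per mouse), with a light blue band for the range of the 6 asymptomatic spleens. Igf2 is at 10.54 to 12.78 in mice 3 to 5 and 5.55 to 6.38 in the others, and Enpep is lowest in mice 4 and 5 (6.70 and 7.14). Rag1, Cd93 and Myb lie far above the band in every mouse, over a narrower range than Igf2 or Enpep.

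The change in spleen was set against that in the lymph nodes of the same mice, with mouse as a block. Several node arrays carry other tissues, and what these add to the differences was not tested. The change differed between the tissues in 1533 genes (7.69%), and in 3 of the 30 genes with the largest spleen changes. Those 30 were chosen by their change on the same spleen arrays, which favours a larger change in spleen than in node. Erg rose by 2.2 (SE 0.20) in node, 1.23 less than in spleen (SE 0.26, adjusted p = 0.00408). Adgrl2 rose by 1.66 (SE 0.30) in node, 1.91 less than in spleen (SE 0.39, adjusted p = 0.00354). Cyyr1 differed by 0.38 (SE 0.57) in node, 2.70 less than in spleen (SE 0.75, adjusted p = 0.0281).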

How the data were processed

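Total RNA of whole spleen and lymph node was hybridised to Affymetrix Mouse Gene 1.0 ST arrays, and 12 of the 30 arrays, the spleens of 6 lymphoma and 6 asymptomatic Tg26 mice, entered the main comparison. The authors deposited log2 values, 1 per probe set and array, from fRMA normalization, per the series' design text; for testing, that text gives surrogate variables, an empirical Bayes linear model and Benjamini-Hochberg adjustment. The values ran from 2.07 to 14.43; arrays have no read depth, and their number limits the precision. Nothing in the sources used here says more about how separate the mice of a group were, so p-values measure the spread between these samples.

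Of 35556 probe sets with values, 21789 had 1 gene symbol in the platform annotation, 1621 had several and 12146 had none; 21698 of the single-symbol probe sets matched RefSeq. A gene was taken from its single-symbol probe set with the highest mean, which gave 19938 genes, 999 of them with more than 1 such probe set. limma 3.58.1 in R 4.3.3 was fitted to the 12 arrays with group and batch, with empirical Bayes and Benjamini-Hochberg adjustment over all genes, and a gene was called at an adjusted p under 0.05. Every adjusted p in the text is from limma. Batch was balanced over the groups, so the fitted difference is the difference of the measured means. It was preferred to surrogate variables because those, 6 in number, rebuilt here from all 30 arrays in 1 fit, gave differences for some genes that lay far from those of the measured means; they are the first alternative. In a simulation of 19938 genes, of which only a small part was changed, the fit recovered 96% of rises of 1 log2 unit. Its noise was normal, with the same SD in both groups and no batch effect. The lymphomas here spread more than the asymptomatic spleens, so that share may not hold for these data.

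The gene lists (44 lists, 857 of 925 entries measured), the members and the alternatives were chosen with earlier results of these data known. Named genes are the 15 largest rises and 15 largest falls among called genes with the same sign in both batches, leaving out predicted, clone-named, small RNA, receptor segment and sex-linked genes, and up to 4 called members per list with the smallest adjusted p, plus members needed to state a split list; other list members and the variable genes were named after their values were seen. The change in spleen was compared with that in node over 24 arrays with mouse as a random block (consensus correlation 0.151). Deviations of mice with the same number correlated at 0.228 to 0.500, and at -0.0317 to 0.200 once batch was removed, so the numbers were taken to share the batch and no more. Promoter windows and miRNA sequences are RefSeq's, build GRCm38.p6.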

Additional observations from a re-analysis of the deposited data

Results flagged for a closer look

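The change between lymphoma and asymptomatic mice differed between spleen and lymph node in 3 of the 30 genes with the largest spleen changes, by a test of the difference itself in limma. The 30 genes were chosen on the same spleen arrays, which favours a larger change in spleen, and several node arrays carry other tissues. The change in spleen minus that in node was 1.91 for Adgrl2 (adjusted p = 0.00354), 1.23 for Erg (adjusted p = 0.00408) and 2.7 for Cyyr1 (adjusted p = 0.0281). Without the mouse block 2 of the 30 passed. Igll1 and Rag1, the largest rises in spleen, differed by 5.40 and 4.84 in node.

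Single samples stood far from the rest of their group in 6 of 146 groups of 6 examined, where chance alone marks about 1 in 20. Cyyr1 was lowest in lymphoma mouse 5, at 5.62, with the other 5 lymphoma spleens at 8.97 to 10.24. H2-Ea was lowest in asymptomatic mouse 5, at 10.3, with the others at 12.20 to 12.43. The mean level of the B lineage regulators was lowest in lymphoma mouse 4, at 9.36. The mean level of the marginal zone and sinus macrophage genes was highest in asymptomatic mouse 5, at 7.11. The mean level of the exocrine pancreas genes was highest among lymphoma spleens in mouse 1, at 6.78. The mean level of the glycolysis and hypoxia genes was lowest among asymptomatic spleens in mouse 4, at 9.1.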

How the results depend on the processing

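Differences of 156 genes, the largest changes and the called list members with the smallest adjusted p, were recomputed under each alternative. Chosen so, these genes were all called in the main fit and do not stand for all genes. Of the recomputed differences, 3989 kept their direction and side of the threshold, 202 kept the direction and lost the call, and 1 reversed. That was Car3, which was 0.64 and became -0.54 with surrogate variables (adjusted p 0.356). Of the counts of called list members, 2092 stayed within 1.5 times their value and 284 did not. Lists with no called gene in a direction that stayed so are among the 2092, which raises that number. The count of called genes left the range of 1.5 times the 4536 genes in 2 alternatives: within batch B it was 1365 (639 higher and 726 lower) with 3 mice a group, and with asymptomatic mice 1 to 3 averaged, an alternative chosen after seeing the data, it was 2721 (1289 higher and 1432 lower). Leaving out each mouse in turn gave 3727 to 5125 called genes, 1748 to 2370 higher and 1949 to 2755 lower. With the replicate number as a block in place of batch 4010 genes were called, and of the named genes Jchain (adjusted p 0.0523) and Psmb10 (adjusted p 0.0564) lost their calls. The count was 3263 with no batch term and 5363 with array weights.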

Other observations

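Neighbours of the genes with the largest changes in spleen were looked up in RefSeq's gene order, after their values were seen. Adgrg3, an adhesion receptor that lies between Drc7 and Adgrg1, rose by 2.90 (SE 0.26, adjusted p = 3.31e-06, limma), so that a run of 3 neighbouring genes was higher in lymphoma. Beside Ptgr1, the zinc finger gene Zkscan16 rose by 2.67 (SE 0.28). Beside Cd93, the thrombomodulin gene Thbd rose by 1.21 (SE 0.20), and Elovl6, a fatty acid elongase 2 genes from Enpep, rose by 1.60 (SE 0.18). Neighbours did not always move: the genes on either side of Gas2l3, Ano4 and Nr1h4, differed by 0.00 and -0.12, and those beside Lgr5, Zfc3h1 and Tspan8, by 0.16 and 0.06, and none of these passed the test.

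The arrays also hold probe sets for miRNA hairpins, of which 300 genes were measured, 6 higher and 10 lower in lymphoma. That is a much smaller share than the 22.8% called over all genes. They read the precursor and not the mature miRNA, and the ones named were chosen after their values were seen. Mir181b-1 was at 6.92 ± 0.54 (SD, n = 6) in lymphoma and 5.57 ± 0.61 (n = 6) in asymptomatic spleens, a rise of 1.35 (SE 0.20, adjusted p = 0.000266, limma). Its neighbour Mir181a-1 rose by 0.28 (SE 0.08), and Mir181d, from another locus, fell by 0.65 (SE 0.12). Mir19a rose by 0.76 (SE 0.17) and Mir15a by 0.50 (SE 0.14), while Mir26b fell by 0.63 (SE 0.10). The mature sequences (RefSeq, GRCm38.p6) are shown because the miR-181 members share 1 seed, bases 2 to 8, in capitals, while their hairpins moved in different directions.
mmu-miR-181a-5p: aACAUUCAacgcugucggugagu
mmu-miR-181b-5p: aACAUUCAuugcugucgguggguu
mmu-miR-181d-5p: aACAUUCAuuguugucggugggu
mmu-miR-19a-3p: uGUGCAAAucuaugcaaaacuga
mmu-miR-15a-5p: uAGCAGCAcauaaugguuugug
mmu-miR-26b-5p: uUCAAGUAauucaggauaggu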
